A study of Mus musculus with 28 samples.

Results

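The genes that encode the subunits and cofactors of Polycomb repressive complex 2 (PRC2) were examined for changes in their own chromatin after loss of *Brg1*. The 10 genes *Ezh1*, *Ezh2*, *Eed*, *Suz12*, *Rbbp4*, *Rbbp7*, *Mtf2*, *Phf1*, *Phf19* and *Jarid2* were taken by name from the 22380 protein-coding genes of a mouse mm9 annotation. The chromatin came from mouse embryonic stem cells (ESCs) differentiated to mesoderm and harvested on day 4. All cells with H3K27ac, H3K27me3 and Suz12 maps were Brg1 f/f; Actin-CreER, in which loxP-flanked *Brg1* is removed by an actin-driven Cre that responds to 4-hydroxytamoxifen (4-OHT). All samples, FLAG included, were induced toward mesoderm from day 2 with VEGF, activin A and BMP4 over 40 h. The Brg1 f/f samples received 200 nM 4-OHT from day 2, or the vehicle tetrahydrofuran (THF) as the control. Both groups started from the same floxed alleles and differed in the drug, which removes *Brg1*. H3K27ac and Suz12 were mapped in 2 THF and 2 4-OHT samples each and H3K27me3 in 3 and 3, and Brg1 itself was mapped by an anti-FLAG ChIP in 3 untreated samples. The labels give the FLAG samples the same genotype as the others, whereas the study's methods describe ESCs with a FLAG-tagged endogenous *Brg1* allele, so the line of these samples rests on conflicting sources. The study's methods call the ChIP replicates biological, and the paper states that its design lets control and 4-OHT be compared inside the same differentiation. Nothing in the labels says whether replicates came from separate differentiations, and a p-value then measures only the spread between these samples.

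PRC2 places methyl groups on lysine 27 of histone H3, and H3K27me3 is its end product and a mark of repressed developmental genes. Ezh1 and Ezh2 are the alternative catalytic subunits, Eed and Suz12 complete the core, and Rbbp4 and Rbbp7 are histone-binding proteins shared with other chromatin complexes. Mtf2, Phf1 and Phf19 are the Polycomb-like proteins that bind CpG-rich DNA, and Jarid2 is a cofactor that helps recruit the complex. Brg1 is an ATPase of the BAF chromatin-remodeling complexes, and H3K27ac, which excludes methylation of the same lysine, marks active promoters and enhancers.

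Each sample was represented by a list of enriched regions, with no height, read count or score, so the depth behind each value is unknown. The measure was therefore the covered length, the number of bases of enriched regions within 5 kb of a gene's 5′-most transcription start site (TSS), in its gene body or within 60 kb of the TSS. A group was called higher or lower only where every 4-OHT list lay beyond every THF list for a gene covered in at least 2 lists. An exact permutation test cannot go below p = 0.333 with 2 lists against 2, or below p = 0.1 with 3 against 3, so no single gene could reach 0.05 by that test. Some lists stood apart. FLAG replicate 3 held 192 regions against 8021 and 8257 in the other FLAG lists, and the H3K27me3 replicate 1 lists were made of narrower regions than those of replicates 2 and 3 (median width 250 bp in both against 350 to 425 bp). The H3K27me3 lists covered 9.81 Mb on average in THF and 7.12 Mb in 4-OHT (log2 ratio -0.46), and the H3K27ac and Suz12 lists differed by log2 -0.11 and 0.10. Lists of regions cannot show the deletion itself: at the *Brg1* gene (*Smarca4*) H3K27ac covered 2875 and 2450 bp in THF and 3250 and 3375 bp in 4-OHT. Among markers of the cell types that the cultures could hold, 5 of 6 mesoderm genes carried H3K27ac at the TSS in both THF lists (all but *Kdr*), as did 2 of 4 pluripotency genes (*Pou5f1* and *Nanog*), 0 of 2 annotated neural genes and 0 of 3 endoderm genes. In such bulk cultures, fewer cells with a mark and less of the mark per cell cannot be told apart. In H3K27ac, 2 of 5 mesoderm genes tested were lower in both 4-OHT lists and 0 higher, against 13.3% and 42.1% of 11364 genes. These were *T* (2188 and 2563 bp in THF, 1588 and 1988 bp in 4-OHT) and *Mesp1* (5227 and 6876 bp, 3576 and 4551 bp). Of 3 pluripotency genes tested, 1 was lower, *Nanog* (4069 and 4344 bp, 3219 and 3619 bp), and 0 higher. The part of these differences in the members' values was not tested.

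In control mesoderm, 9 of the 10 genes had H3K27ac at the TSS in both THF lists, where 47.7% of all protein-coding genes did. *Phf19* was the exception. It had no H3K27ac within 5 kb of its 5′ TSS in any of the 4 lists, and it was the 1 member with H3K27me3 there in every THF list (11.8% of all genes) and with Suz12 in every THF list (6.03% of all genes). Both Polycomb marks were present in all THF lists at 5.83% of genes, and at 1 of the 10 members. The promoters of the members, read from 250 bp before to 50 bp after the TSS, were mostly rich in CpG, with *Jarid2* below the median of all promoters. Their median GC content was 67.5% against 55% over 22375 protein-coding promoters, and their median ratio of observed to expected CpG was 0.885 against 0.534. *Rbbp4* had the highest ratio (1.12) and *Jarid2* the lowest (0.497). The *Jarid2* value belongs to the 5′-most annotated start, and the nearer of its 2 RefSeq promoters, 1300 bp downstream of that start in mm9, had a ratio of 0.81.

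The 250 bases before the start of *Ezh2*, which had H3K27ac in all lists, and of *Phf19*, which had H3K27me3 and Suz12, are shown to compare a member promoter of each state. Both are on the minus strand of mm9, at chr6:47545341-47545590 and chr2:34769547-34769796, are written 5′ to 3′ along the gene's strand, and have their CpG dinucleotides in capitals.
Ezh2 start: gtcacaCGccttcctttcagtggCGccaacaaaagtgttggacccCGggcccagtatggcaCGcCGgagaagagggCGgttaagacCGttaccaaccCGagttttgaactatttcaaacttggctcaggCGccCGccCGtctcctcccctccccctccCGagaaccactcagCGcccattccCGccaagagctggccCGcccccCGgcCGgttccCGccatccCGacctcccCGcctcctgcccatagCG
Phf19 5′ start: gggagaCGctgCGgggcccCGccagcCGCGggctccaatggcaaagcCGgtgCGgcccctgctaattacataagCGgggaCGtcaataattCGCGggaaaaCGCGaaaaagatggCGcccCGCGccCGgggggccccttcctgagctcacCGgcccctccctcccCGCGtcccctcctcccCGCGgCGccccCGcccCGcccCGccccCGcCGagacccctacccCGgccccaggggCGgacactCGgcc
The *Ezh2* sequence holds 21 CpGs at 65.2% GC and the *Phf19* sequence 31 CpGs at 75.2% GC, so the Polycomb-marked promoter was the more CpG-rich of the pair. This order holds for the pair and not for the 2 states. Over the 300-base promoters, the acetylated *Suz12*, *Mtf2*, *Rbbp4* and *Rbbp7* had higher observed to expected ratios (1.09, 1.09, 1.12 and 0.963) than *Phf19* (0.888). The remaining members had lower ones. In the *Phf19* sequence 61 bases lie in an exon of the lincRNA *Gm13448*, which is annotated across the *Phf19* start on the opposite strand. A few short motifs were searched on both strands of all 300-base promoters, and none of the motifs contains another. GGGCGG, the Sp1 box, was found in 7 of 10 members and 43.4% of all promoters, and CCAAT in 6 of 10 and 37.9%. An E2F form (TTTCCCGC) was present at *Suz12* and *Phf19* and at 1.33% of promoters, and a YY1 form (AGATGGCG) at *Phf19* and 2.44%. The second E2F form (TTTGGCGC, 0.679% of promoters), the NRF1 form (CGCATGCG, 2.23%) and the ETS form (CCGGAAG, 10.8%) had no match in these windows of the members. A match is a description of the letters and not a binding site.

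H3K27ac within 5 kb of the 5′-most TSS of the catalytic subunits overlapped between THF and 4-OHT. *Ezh2* (chr6:47480273-47545340, minus strand), the main methyltransferase of dividing cells, was covered over 1725 and 1775 bp in THF and 1750 and 1750 bp in 4-OHT. The log2 difference in limma, a moderated linear model fitted to log2(covered bp + 25) over all genes, was 0.00 with a 95% interval of -0.20 to 0.20. The 4 lists differed by 50 bp at most, and the groups overlapped. *Ezh1* (chr11:101052429-101087777, minus strand), the catalytic subunit that is also used in non-dividing cells, had 225 and 475 bp in THF and 375 and 450 bp in 4-OHT. Of the 475 bp, 100 bp lay in a separate region 4.75 kb upstream that no other list held. The *Ezh1* lists overlapped, and its interval of -1.0 to 1.60 leaves changes of either direction undetectable here. One list decided its log2 difference of 0.30, which was -0.20 without THF replicate 1 and 0.80 without THF replicate 2. Counted around all annotated starts, *Ezh1* was lower in both 4-OHT lists, with means of 937.5 bp in THF and 475 bp in 4-OHT. That window adds a region 36.5 kb downstream of the 5′-most start, in an exon of *Cntnap1*, with 450 and 725 bp in THF and 125 and 0 bp in 4-OHT.

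The core and histone-binding genes had H3K27ac at their promoters in all 4 lists, with overlapping groups at all but *Rbbp4*. *Eed* (chr7:97103166-97129493, minus strand), the subunit that reads H3K27me3, was covered over 2350 and 2150 bp in THF and 2425 and 2200 bp in 4-OHT. *Suz12* (chr11:79806608-79847625, plus strand), the scaffold of the core, had 2025 and 2175 bp in THF and 2150 and 1975 bp in 4-OHT. Neither gene separated the groups. *Rbbp4* (chr4:128984344-129012614, minus strand) had 2000 and 2175 bp in THF and 2275 and 2300 bp in 4-OHT, and it was the 1 member of 9 whose lists did not overlap, with both 4-OHT values higher (log2 0.13, interval -0.09 to 0.36, limma adjusted p = 0.4). Within 2.5 kb of the TSS the groups overlapped at *Rbbp4*, with means of 2087.5 bp in THF and 2225 bp in 4-OHT, and *Rbbp7* was the 1 member that did not overlap. The start of *Rbbp4* lies 325 bp from that of *Zbtb8os*, so the region over it could belong to either gene. *Rbbp7* (chrX:159198334-159217024, plus strand) had 4950 and 5300 bp in THF and 4625 and 5025 bp in 4-OHT, and its groups overlapped.

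Among the accessory genes, *Jarid2* (chr13:44824843-45017012, plus strand) had the longest acetylated stretch of all 10 promoters, with 5443 and 5775 bp in THF and 5043 and 5468 bp in 4-OHT. *Mtf2* (chr5:108494693-108538023, plus strand) had 1575 and 1550 bp in THF and 1450 and 1575 bp in 4-OHT. *Phf1* (chr17:27070072-27074835, plus strand) had 425 and 875 bp in THF and 775 and 1075 bp in 4-OHT. All 3 overlapped between groups over the whole window. Within it, the *Phf1* region 0.572 kb upstream of the TSS was longer in both 4-OHT lists (300 and 525 bp in THF, 550 and 600 bp in 4-OHT). The *Phf1* region 0.253 kb into the gene overlapped, and single regions at the *Jarid2* promoter are given below. The limma log2 differences were -0.09 (-0.30 to 0.11) for *Jarid2*, -0.05 (-0.29 to 0.20) for *Mtf2* and 0.56 (-0.67 to 1.79) for *Phf1*, so for *Phf1* a loss or a gain of this size could not be told from no difference. The *Phf1* value was 0.06 without THF replicate 1 and 1.06 without THF replicate 2.

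Over the 9 genes with H3K27ac at the TSS, 0 were lower in both 4-OHT lists and 1 was higher, while 13.3% of 11364 genes were lower and 42.1% higher by the same rule. The median log2 ratio of the group means was 0.00 over the 9 members, with a range of -0.09 to 0.49, and 0.15 over all 11364 genes. Scaling each list by its total covered length moved the members' median to 0.10 and that of all genes to 0.25. It turned the small negative ratios of *Suz12*, *Jarid2*, *Mtf2* and *Rbbp7* into positive ones of 0.02 to 0.08, so no direction is given for these promoters. It also placed both 4-OHT values of *Eed* and *Suz12* above both THF values, beside *Rbbp4*. With limma and Benjamini-Hochberg adjustment 0 of the 9 members and 0 genes in all (0% of 11364) passed an adjusted p of 0.05, and 2296 genes but no member had an unadjusted p under 0.05. The members' adjusted p ranged from 0.4 to 1.

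**Figure D1:**
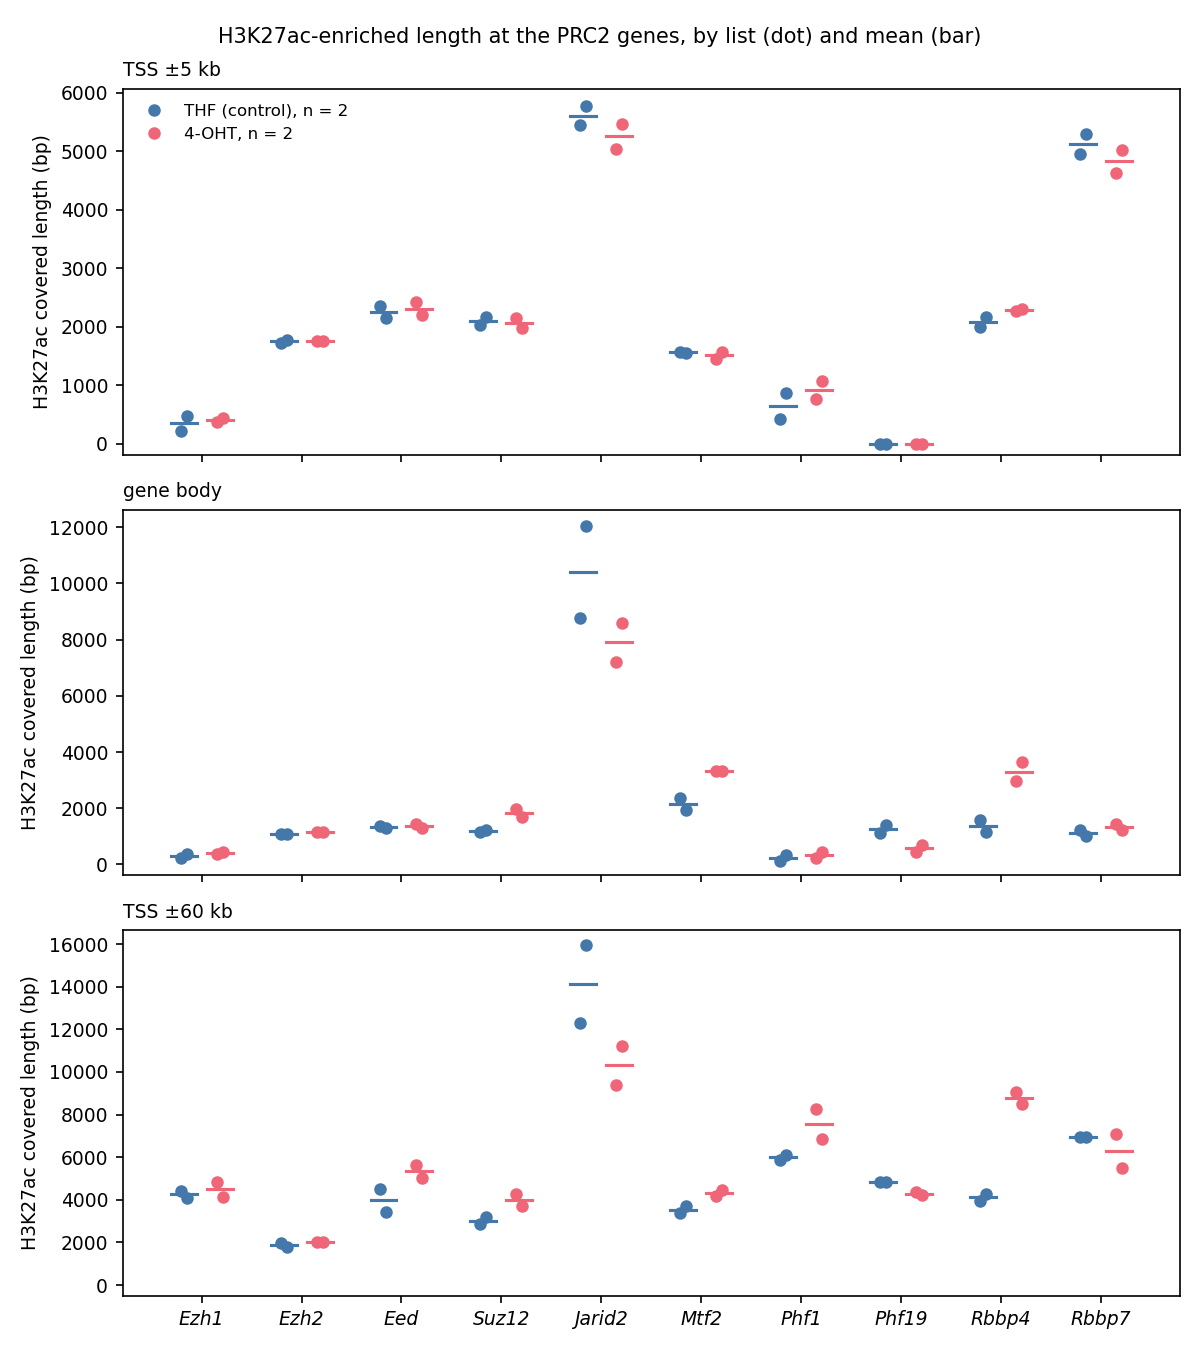
Length covered by H3K27ac regions (bp, linear axis from 0) at each of the 10 PRC2 genes, within 5 kb of the 5′-most TSS (top), in the gene body (middle) and within 60 kb of the TSS (bottom), with a dot for each of the 2 THF (blue) and 2 4-OHT (red) lists and a bar at each group's mean. In the top panel *Rbbp4* is the 1 gene whose groups do not overlap and *Phf19* is at 0 in all 4 lists; in the bottom panel *Rbbp4* has a 4-OHT mean 2.13 times the THF mean and *Jarid2* lies lower in both 4-OHT lists.

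In wider windows, which include the promoter, more of the members had groups that did not overlap. In the gene bodies, 5 of the 10 members were higher in both 4-OHT lists (*Ezh2*, *Suz12*, *Mtf2*, *Rbbp4* and *Rbbp7*, against 35.3% of 11826 genes) and 2 were lower (*Jarid2* and *Phf19*, against 19.4%). Within 60 kb of the TSS, 6 were higher (*Ezh2*, *Eed*, *Suz12*, *Mtf2*, *Phf1* and *Rbbp4*, against 41.1% of 17027 genes) and 2 were lower (*Jarid2* and *Phf19*, against 21.7%). Windows of 60 kb also hold regions of neighboring genes. At *Ezh2* the covered part of the gene body was the promoter region itself. The members' median log2 ratio was 0.34 in the gene bodies and 0.20 within 60 kb, where all genes had 0.12 and 0.13. With lists scaled by their totals, *Phf19* alone was lower in the gene body and *Jarid2* alone within 60 kb.

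The *Rbbp4* locus had the highest log2 ratio of the 10 within 60 kb. Its 60 kb window held 3950 and 4275 bp of H3K27ac in THF and 9050 and 8500 bp in 4-OHT, a 2.13-fold difference of the means (log2 1.09, exact permutation p = 0.333, the smallest possible). Its gene body held 1564 and 1139 bp in THF and 2964 and 3639 bp in 4-OHT. Of 13 regions of the window that were covered in at least 2 lists, 9 were longer in both 4-OHT lists and 0 were shorter. Over all protein-coding genes, 33.2% of 26546 such regions were longer and 26.4% shorter. The longer regions include some in the neighboring genes *Sync* and *Zbtb8a*. The regions more than 5 kb from a TSS that are named here for *Rbbp4*, *Jarid2*, *Rbbp7*, *Suz12*, *Mtf2*, *Eed*, *Ezh1* and *Phf19* were picked after their values were seen. One of them lies in an intron of *Zbtb8a* 38.9 kb upstream of *Rbbp4*, with 25 and 175 bp in THF and 1750 and 1000 bp in 4-OHT. A second, 9.48 kb inside *Rbbp4*, had 275 and 0 bp in THF and 800 and 1425 bp in 4-OHT. No FLAG list had a region anywhere in this window.

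Higher values in both 4-OHT lists, with smaller differences, were seen around *Suz12*, *Mtf2*, *Eed* and *Ezh2*. *Suz12* had 1168 and 1243 bp of H3K27ac in its gene body in THF and 1968 and 1693 bp in 4-OHT. Most of the difference lay in a region 38.6 kb downstream of the start, near the 3′ end of the gene, with 50 and 0 bp in THF and 775 and 700 bp in 4-OHT. *Mtf2* had 2358 and 1933 bp in its gene body in THF and 3333 and 3308 bp in 4-OHT, with an intronic region at 14.2 kb going from 800 and 775 bp to 1275 and 1450 bp. The 60 kb window of *Eed* held 4500 and 3450 bp in THF and 5650 and 5025 bp in 4-OHT, and an intergenic region 26.2 kb upstream had 500 and 0 bp in THF and 1050 and 650 bp in 4-OHT. At *Ezh2* the gene-body values were 1090 and 1090 bp in THF and 1140 and 1165 bp in 4-OHT, the shortest of these shifts although the groups did not overlap.

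*Jarid2* ran the other way. Its 60 kb window held 12300 and 15950 bp of H3K27ac in THF and 9400 and 11225 bp in 4-OHT (log2 -0.45), and its gene body 8758 and 12033 bp in THF and 7208 and 8608 bp in 4-OHT. Of 9 regions covered in at least 2 lists, 5 were shorter and 1 was longer in both 4-OHT lists, against 26.4% and 33.2% of such regions around all protein-coding genes. The region over the TSS was among the shorter ones, with 3800 and 4150 bp in THF and 3425 and 3600 bp in 4-OHT. The intronic region 17.6 kb into the gene had 1275 and 2650 bp in THF and 175 and 725 bp in 4-OHT. An intergenic region 17.5 kb upstream had 475 and 1100 bp in THF and was absent from both 4-OHT lists, and another 23.7 kb upstream had 1975 and 1950 bp in THF and 1300 and 1350 bp in 4-OHT. The longer one, 4.38 kb into the gene, had 1875 and 1775 bp in THF and 2075 and 2050 bp in 4-OHT, so the *Jarid2* locus held both directions.

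**Figure D2:**
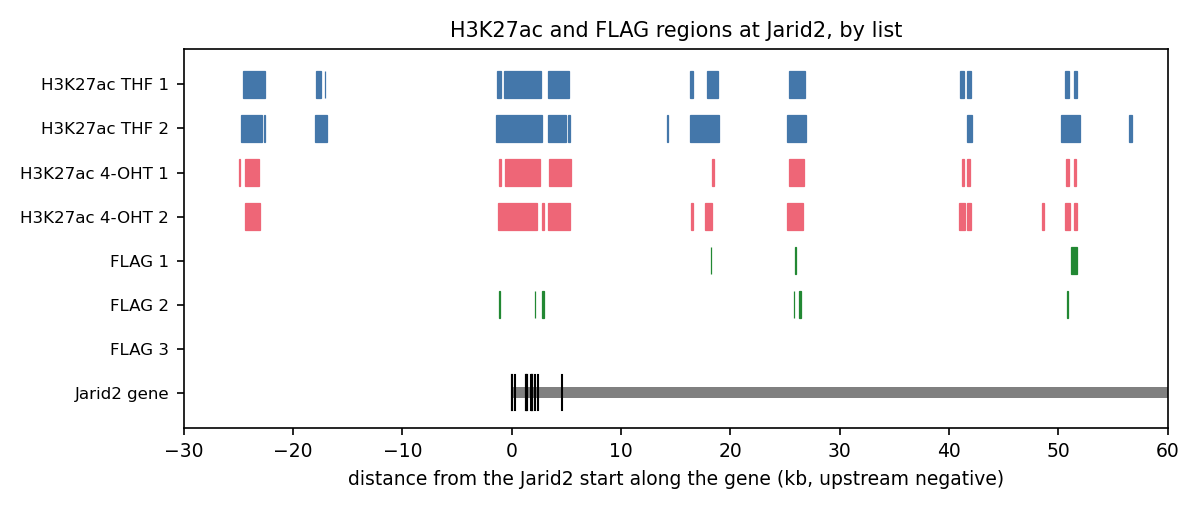
Positions of H3K27ac and FLAG regions around *Jarid2*, with distance from the TSS in kb on the horizontal axis and 1 row for each list (THF blue, 4-OHT red, FLAG green); each block is 1 region drawn to scale, and the grey bar is the gene with its annotated starts as black ticks. The blocks at -17.5 kb are present in both THF lists and absent from both 4-OHT lists, those at 17.6 kb are shorter in 4-OHT, and the row of FLAG replicate 3 is empty.

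*Rbbp7* held both directions at its promoter. The region over its TSS was longer in 4-OHT (2850 and 3050 bp in THF, 3225 and 3250 bp in 4-OHT), and the region 3.46 kb upstream was shorter (1925 and 2250 bp in THF, 1175 and 1775 bp in 4-OHT). Narrowing the window to 2.5 kb therefore turned its log2 ratio from -0.09 to 0.09. Farther upstream, at 11.7 kb, a region had 600 and 1150 bp in THF and 0 and 25 bp in 4-OHT.

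Over all members, 98 merged H3K27ac regions lay within 60 kb of a TSS and 70 were covered in at least 2 lists. Of these, 12 were shorter in both 4-OHT lists and 31 were longer, against 26.4% and 33.2% of 26546 such regions around all protein-coding genes. Of 50 regions found in both THF lists, 2 (4%) had no overlapping region in either 4-OHT list, against 14.7% of 21945. With regions under each list's median width left out, the shares were 14.3% and 11.8%, and where 4-OHT had to cover at least 50% of a region they were 16% and 23.8%, so the order turned with the width minimum. The 2 regions missing from the full lists were the region 17.5 kb upstream of *Jarid2* and one 51 kb upstream of *Mtf2*, with 125 and 225 bp in THF. The *Rbbp4* locus contributed 9 of the 31 longer regions and *Jarid2* 5 of the 12 shorter ones. Regions of 1 locus share their neighborhood and are not independent of each other.

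**Figure D3:**
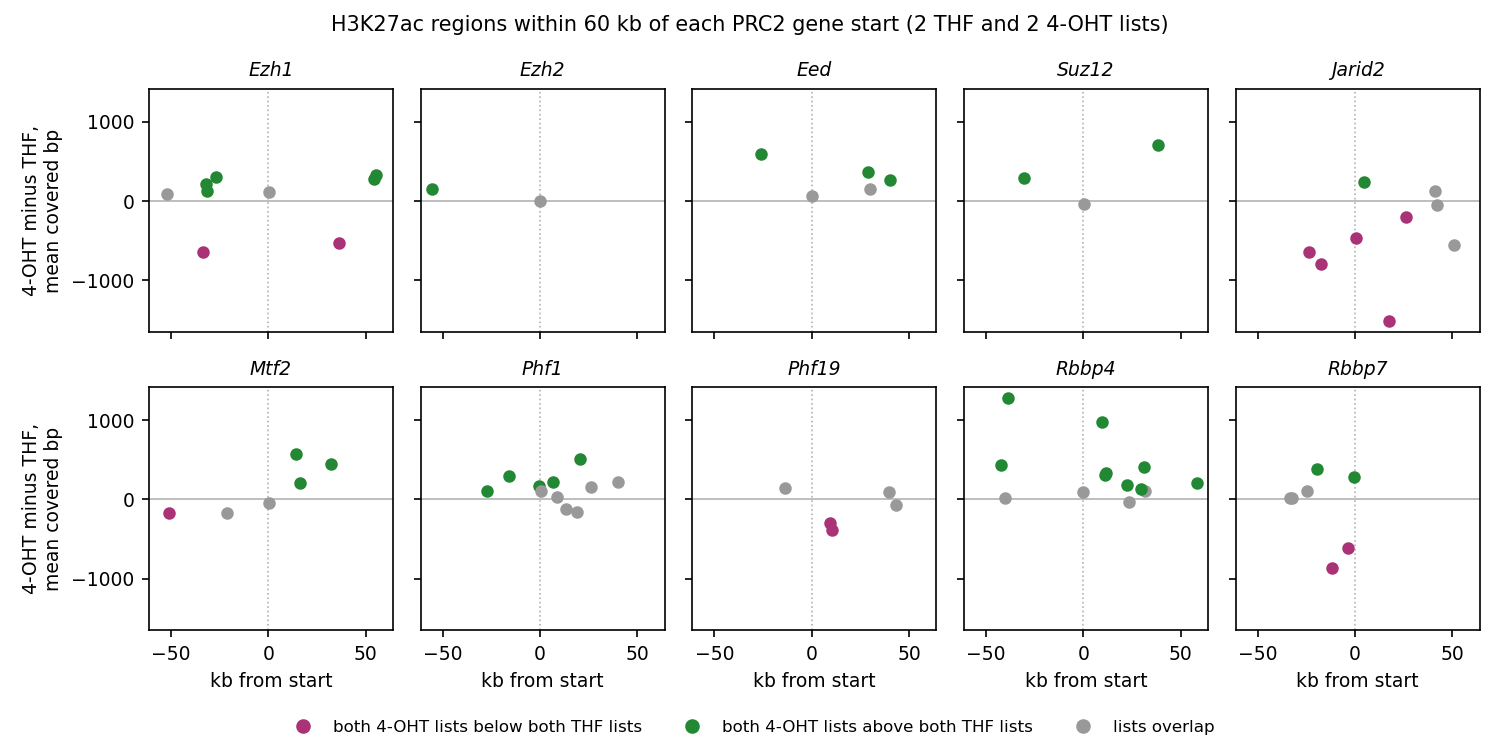
Difference in mean covered length (4-OHT minus THF, bp) of each H3K27ac region within 60 kb of a PRC2 gene, for the regions covered in at least 2 of the 4 lists, against its distance from the TSS in kb (negative values upstream), with 1 panel for each gene. Purple dots are regions shorter in both 4-OHT lists, green dots are longer in both and grey dots overlap; *Rbbp4* has 9 green and 0 purple dots, and *Jarid2* 5 purple and 1 green.

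*Phf19* (chr2:34749277-34769546, minus strand) was the 1 member under Polycomb marks at its own start. H3K27me3 covered 850, 1875 and 1975 bp within 5 kb of the TSS in THF replicates 1, 2 and 3, and 50, 1300 and 1125 bp in 4-OHT replicates 1, 2 and 3. The value was lower in each of the 3 same-numbered pairs, as it was for 53.6% of 3456 genes, but the groups overlapped because THF replicate 1 lay below both 4-OHT replicates 2 and 3 (exact permutation p = 0.3). By the rule of no overlap, 0 of 1 member was lower or higher, against 14.6% and 0.231% of genes. Without the replicate 1 lists of both conditions *Phf19* was lower in both 4-OHT lists, as were 49.7% of 3044 genes. The limma log2 difference was -1.62 with an SE of 1.13 (interval -4.19 to 0.95), adjusted p = 0.667 and, with the replicate number as a block, adjusted p = 0.269. The value rested largely on 4-OHT replicate 1, with its 50 bp, and was -0.27 (-1.47 to 0.92) without that list. No gene passed for H3K27me3 (0% of 3456), and 241 had an unadjusted p under 0.05. The total H3K27me3 length was also lower in 4-OHT, and scaling by it moved the *Phf19* log2 ratio of means from -0.91 to -0.62 and that of all genes from -0.54 to -0.10.

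Suz12 protein was listed at the *Phf19* start in all 4 samples. The region covered 800 and 275 bp in THF and 600 and 1175 bp in 4-OHT, and the groups overlapped. Its limma log2 difference was 0.80 (interval -1.10 to 2.70, adjusted p = 0.623), so neither loss nor gain of Suz12 could be shown. It was 1.53 without THF replicate 1 and 0.07 without THF replicate 2, and 1.27 and 0.33 without 4-OHT replicates 1 and 2. By the rule of no overlap 6.94% of 1902 genes were lower in Suz12 and 38.6% higher, and *Phf19* was neither. In limma 0% of the 1902 genes passed, and 359 had an unadjusted p under 0.05. That count depended on single lists, since 3 genes passed lower and 141 higher without THF replicate 1, and 2 lower and 171 higher without THF replicate 2, none of them a member.

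Acetylation at *Phf19* lay inside the gene rather than at its start. Both regions there sit beside internal starts of shorter annotated transcripts. The first, at chr2:34759476-34760350, covered 725 and 875 bp in THF and 450 and 550 bp in 4-OHT, and the second, at chr2:34758676-34759200, covered 400 and 525 bp in THF and 0 and 150 bp in 4-OHT. Together the gene body had 1125 and 1400 bp in THF and 450 and 700 bp in 4-OHT (log2 -1.10, exact permutation p = 0.333). Both 4-OHT values were lower than both THF values, also after scaling by list totals. FLAG replicate 1 had a region inside the first of these, at chr2:34759626-34759900, which the other 2 FLAG lists lacked. Its mm9 plus-strand sequence is given because it is the one place in *Phf19* with a FLAG region, and 47 of its 275 bases lie in an annotated exon. CpGs are in capitals.
Phf19 internal FLAG region: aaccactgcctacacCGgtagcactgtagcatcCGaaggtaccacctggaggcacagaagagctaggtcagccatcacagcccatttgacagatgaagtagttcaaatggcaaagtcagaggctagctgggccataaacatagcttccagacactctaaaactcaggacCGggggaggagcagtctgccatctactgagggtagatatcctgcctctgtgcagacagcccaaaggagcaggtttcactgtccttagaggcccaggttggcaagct
It holds 3 CpGs, with an observed to expected ratio of 0.155, where the *Phf19* start printed above had 0.914.

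**Figure D4:**
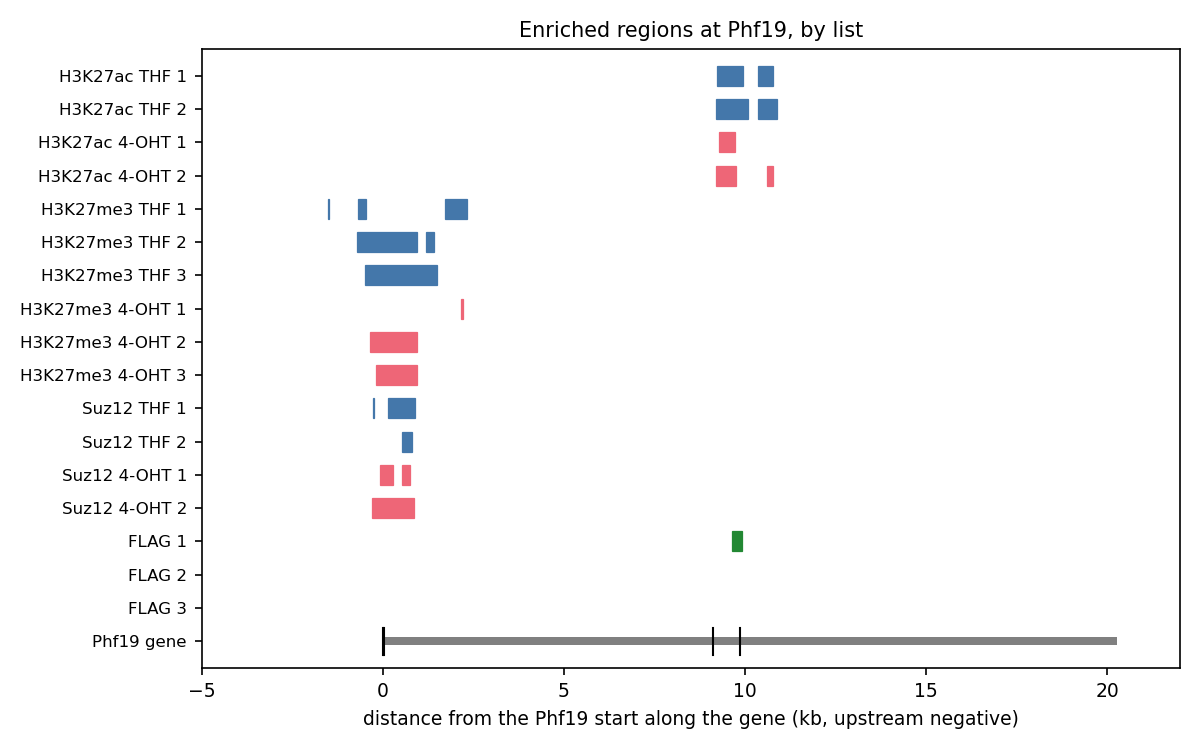
Positions of enriched regions around *Phf19*, with distance from the 5′-most TSS in kb along the gene on the horizontal axis and 1 row for each list (THF blue, 4-OHT red, FLAG green); each block is 1 region drawn to scale, and black ticks on the grey gene bar are annotated starts. H3K27me3 and Suz12 blocks lie at the 5′ start, H3K27ac blocks lie at 9.63 and 10.6 kb inside the gene and are shorter in 4-OHT, and the rows of FLAG replicates 2 and 3 are empty.

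None of the other 9 members had H3K27me3 or Suz12 within 5 kb of the TSS in a THF list, and 4 of the 10 had H3K27me3 within 60 kb in at least 2 lists. All 4 (*Ezh1*, *Ezh2*, *Phf19* and *Rbbp4*) were lower in each same-numbered pair, against 60.2% of 7681 genes, and their median log2 ratio was -0.89 against -0.67. Without the pairing, 1 of the 4 (*Ezh2*) had groups that did not overlap. Of 11 H3K27me3 regions in these windows that were covered in at least 2 lists, 3 were shorter in all 4-OHT lists and 0 longer, against 11.3% and 0.356% of 7307 regions around all genes.

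The longest H3K27me3 region that was missing from the 4-OHT lists lay upstream of *Ezh2*. A region at chr6:47596551-47600425, centered 53.1 kb from the *Ezh2* TSS, was covered over 3125, 3850 and 3450 bp in the THF lists and had no H3K27me3 in any of the 3 4-OHT lists (exact permutation p = 0.1, the smallest possible). It was picked after its values were seen. Genome-wide, 4225 H3K27me3 regions were found in all 3 THF lists, and 205 of them (4.85%) were overlapped by no 4-OHT list. Ranked by mean THF length, this region came first of the 205 with 3475 bp, and the next had 1625 bp. It is intergenic, no annotated gene overlaps it, and *Ezh2* has the nearest protein-coding TSS. No Suz12 list covered it. A second, shorter region 48.7 kb upstream was listed in replicate 1 only, with 200 bp in THF and 300 bp in 4-OHT. An H3K27ac region 55.7 kb upstream, outside the methylated stretch, had 225 and 0 bp in THF and 250 and 275 bp in 4-OHT.

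The 3875 bp of the *Ezh2* upstream region were not CpG-rich, with 49.2% GC, 52 CpGs and an observed to expected ratio of 0.223. The 300 bases in its middle, at chr6:47598339-47598638 on the plus strand of mm9, are shown for comparison with the *Phf19* start, with CpGs in capitals.
Ezh2 upstream H3K27me3 region, middle: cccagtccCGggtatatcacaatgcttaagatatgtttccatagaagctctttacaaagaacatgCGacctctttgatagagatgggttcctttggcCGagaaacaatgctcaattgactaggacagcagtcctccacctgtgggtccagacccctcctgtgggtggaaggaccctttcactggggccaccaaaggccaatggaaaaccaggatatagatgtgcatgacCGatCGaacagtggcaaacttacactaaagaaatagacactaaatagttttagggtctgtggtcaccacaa
This stretch holds 5 CpGs, whereas the shorter *Phf19* start held 31.

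**Figure D5:**
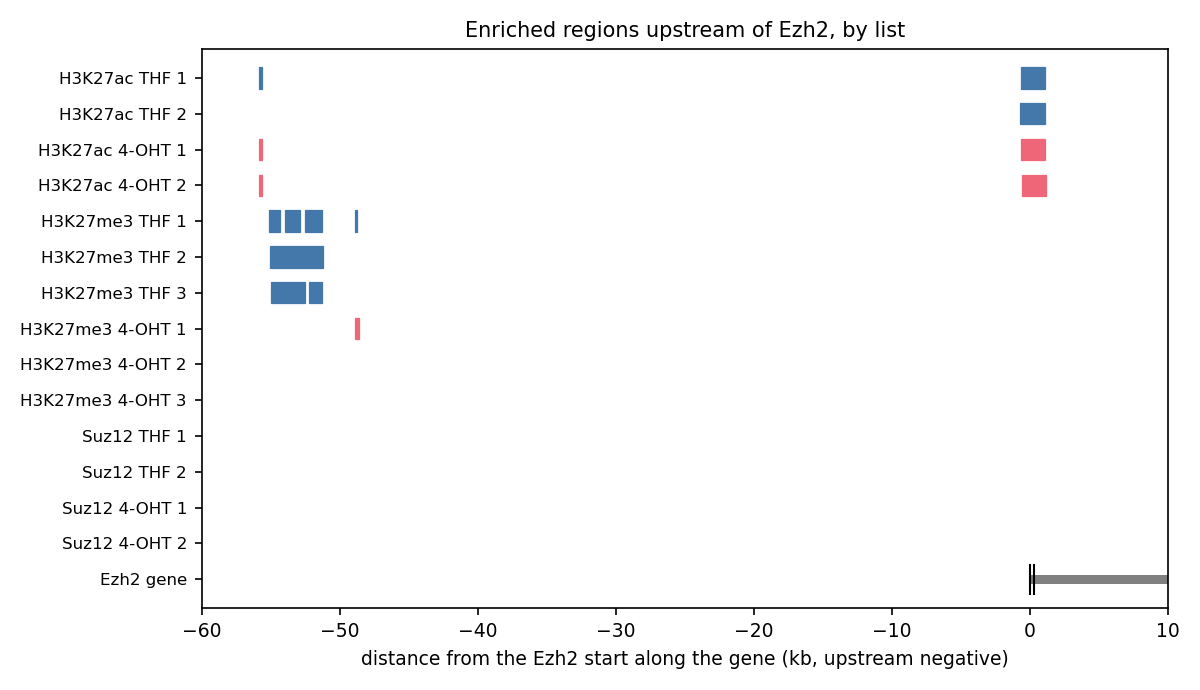
Positions of enriched regions from the start of *Ezh2* to 60 kb upstream of it, with distance from the TSS in kb on the horizontal axis (negative values upstream) and 1 row for each H3K27ac, H3K27me3 and Suz12 list (THF blue, 4-OHT red); the grey bar is the gene. H3K27me3 blocks at -53.1 kb are in all 3 THF rows and in none of the 4-OHT rows, the 4 Suz12 rows are empty, and the H3K27ac block over the TSS is in all 4 H3K27ac rows.

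The other H3K27me3 near members lay over neighboring genes. The *Ezh1* window held 4200, 8050 and 7125 bp in THF and 650, 5175 and 4650 bp in 4-OHT, at *Cntnap1*, *Ccr10*, *Ramp2* and *Wnk4* and not at *Ezh1*. The 2 regions that were shorter in all 4-OHT lists were one at *Ccr10* and *Cntnap1* (1150, 1675 and 1700 bp in THF, 0, 825 and 500 bp in 4-OHT) and one at *Ramp2* (425, 175 and 75 bp in THF, absent in 4-OHT). In the *Rbbp4* window H3K27me3 lay at *Sync*, where the main region had 325, 2125 and 2125 bp in THF and 250, 1875 and 1150 bp in 4-OHT. Suz12 was listed in that region in 4-OHT only, over 225 and 175 bp. These values describe the neighborhoods of the genes rather than the genes.

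Brg1 itself was examined in the FLAG lists. A region was called Brg1-bound where at least 2 of the 3 FLAG lists covered it, and 0 of 10 members had one within 5 kb of the TSS (2.11% of all genes) or in the gene body (3.63%), counts too small to set the members apart from other genes. Within 60 kb 1 of 10 had one (10.9% of genes). That region, at chr11:101130901-101131125, is 43.2 kb upstream of *Ezh1* inside *Wnk4*, with 100 bp in FLAG replicate 1, 175 bp in replicate 2 and 0 in replicate 3, and no H3K27ac list covered it. Leaving out replicate 3, the sparse list, left the same single gene. Counting any FLAG list gave 3 members at the TSS (*Eed*, *Jarid2* and *Rbbp7*, 14% of genes), 3 in the gene body (*Eed*, *Jarid2* and *Phf19*, 14.9%) and 7 within 60 kb (41.9%). The *Jarid2* window held 9 of these single-list regions, and FLAG replicate 3 contributed none at any member. The intronic H3K27ac regions of *Jarid2* at 26.1 and 51.1 kb each held calls from both FLAG replicates 1 and 2. Those calls shared no base, so the rule did not count them as Brg1-bound.

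The mm9 plus-strand sequences of the *Ezh1* region and of the FLAG regions at the *Eed* and *Rbbp7* promoters are shown because they are the places nearest to these members with any FLAG call. The *Ezh1* region has 100 of 225 bases in annotated exons, the *Eed* region is chr7:97128776-97128825 in FLAG replicate 1, the *Rbbp7* region is chrX:159194576-159194650 in replicate 2, and CpGs are in capitals.
Ezh1 upstream FLAG region: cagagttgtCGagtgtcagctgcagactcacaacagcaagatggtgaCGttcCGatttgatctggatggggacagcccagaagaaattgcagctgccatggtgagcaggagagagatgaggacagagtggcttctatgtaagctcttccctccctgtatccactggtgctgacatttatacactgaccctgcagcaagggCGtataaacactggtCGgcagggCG
Eed FLAG region: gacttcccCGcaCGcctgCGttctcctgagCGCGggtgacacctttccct
Rbbp7 FLAG region: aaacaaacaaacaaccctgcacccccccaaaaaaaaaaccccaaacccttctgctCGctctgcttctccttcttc
The *Eed* and *Rbbp7* regions lay inside H3K27ac regions in all 4 lists, and the whole of each was acetylated in both conditions. The *Rbbp7* sequence holds 1 CpG, whereas the 50 bases at *Eed* hold 5.

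Other genes of the same pathways were counted in the same windows within 5 kb of the TSS. Of 5 other PRC2 accessory genes, 4 had H3K27ac, with 1 lower and 1 higher (13.3% and 42.1% of all genes). *Epop* (E130012A19Rik in the annotation), which competes with Jarid2 for PRC2, had no Suz12 in THF and 250 and 875 bp in 4-OHT. It was the 1 accessory gene tested for Suz12, where 38.6% of all genes were higher. Of 20 genes of PRC1, the complex that binds H3K27me3, 17 were tested for H3K27ac and 8 were higher and 1 lower, against 42.1% and 13.3% of all genes. In H3K27me3 8 of the 20 were tested and 1 was lower (14.6% of all genes), *Pcgf3*, with 2100, 500 and 425 bp in THF and 400, 150 and 0 bp in 4-OHT. Of 4 tested for Suz12, 0 were lower or higher, against 6.94% and 38.6% of all genes. Of 3 H3K27 demethylase genes 1 was higher in H3K27ac, and of 2 acetyltransferase genes 1 was higher (42.1% of all genes). Among 8 genes chosen as Polycomb targets, all 8 had H3K27me3 and Suz12 in every THF list and 0 had H3K27ac, and 3 (*Hoxd13*, *Irx1* and *Olig2*) were lower in Suz12 (6.94% of all genes). In H3K27me3 0 of the 8 were lower or higher by the rule of no overlap, against 14.6% and 0.231% of all genes. *Hoxa13*, *Hoxd13*, *Pax6*, *Irx1*, *Olig2* and *Wt1* were lower in each same-numbered pair and *Nkx2-5* and *Neurog1* were not, against 53.6% of all genes. Some of these values filled the whole window (10001 bp). All 6 housekeeping genes had H3K27ac and 0 had H3K27me3, and 4 were higher in H3K27ac (42.1% of all genes). Of the cell-type markers, *T*, *Mixl1*, *Kdr* and *Pdgfra* (4 of 5 mesoderm genes tested) were higher in Suz12 (38.6% of all genes). *Foxa2* (1 of 3 endoderm genes tested) was lower (6.94% of all genes). The counts of these lists are small and each comparison has the same limit of p = 0.333 or p = 0.1 in an exact test.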

How the data were processed

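The deposited files were lists of enriched regions in BED form, 1 per ChIP sample, with positions only. The submitters' processing notes name Bowtie (its version is not given in the sources used here) and mm9, and the study describes regions called per replicate over input with a Poisson model. The headers of the deposited lists give a threshold of 1e-06 for FLAG and 1e-12 for the others and hold no score, so read depth and enrichment per region are unknown and no counting interval could be given. Regions end on multiples of 25 bp. The 28 samples comprise 17 ChIP samples, whose lists were used, and 11 inputs.

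Positions were checked against mm9, and genes came from GENCODE vM1. Covered bases were counted per gene and list with Python 3.11.15 and NumPy 2.4.6. Groups were compared by exact two-sided permutation tests and by limma 3.58.1 (R 4.3.3, trend and robust, statmod 1.5.0) on log2(covered bp + 25) over genes covered in at least 2 lists, with Benjamini-Hochberg adjustment, and the limma step was tested on simulated data. RefSeq promoters of GRCm38.p6 were matched by sequence in mm9, for 10 of 10 members, 9 of them within 1 kb of the TSS. Figures were drawn with Matplotlib 3.10.9. The labels pair the samples only by a shared replicate number. For H3K27me3, deviations of same-numbered lists from their group means correlated at 0.607, 0.396 and 0.385 over 3456 genes. Those of differently numbered lists correlated at -0.441 to 0.199.

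Named were all members, regions within 5 kb of their TSS, Brg1-bound regions within 60 kb, and genes of the other lists whose groups did not overlap in H3K27me3 or Suz12. Outside this rule, cell-type markers were also named by their H3K27ac values. Regions within 5 kb of a TSS whose groups overlapped were mostly given only within the window totals. The members and the gene lists were chosen with earlier results of these data known. Alternatives were other windows, all annotated starts, scaling by list total, a width minimum, joined regions, another pseudocount, the replicate block and each replicate left out.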

Additional observations from a re-analysis of the deposited data

How the results depend on the processing

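Depth could not be weighed because the lists hold no counts, and a region missing from a list may lie just under the authors' threshold. Of the counts recomputed under an alternative, 76 stayed within 1.5 times the reported count and 35 did not. The 76 include the limma counts of members, which were 0 in every setting. In most of those settings 0 genes passed in all, so these counts had little room to move. Counts of non-overlapping members pool lower and higher calls, so a change of direction would not show in them. The count of 1 member with non-overlapping H3K27ac at the TSS became 7 in the gene body and 8 within 60 kb. With all annotated TSSs it was 3 (*Ezh1* and *Phf19* lower, *Rbbp4* higher). With lists scaled by their totals it was 3, with a width minimum 2 (*Jarid2* and *Phf1*, without *Rbbp4*) and with regions joined 2. Within 2.5 kb it was again 1, but a different gene (*Rbbp7*, with *Rbbp4* overlapping). Leaving out 1 list gave 3 to 7, namely 7 without THF replicate 1, 4 without THF replicate 2, 3 without 4-OHT replicate 1 and 5 without 4-OHT replicate 2. Judged by same-numbered pairs as a replicate block it was 5 (*Eed*, *Phf1* and *Rbbp4* higher, *Jarid2* and *Rbbp7* lower). Fewer lists, or pairs in place of groups, separate more easily. Outside the gene body and 60 kb windows, the share over all genes was not counted for these settings. The rises in these counts are therefore not read as results about the members. Like those of H3K27me3, the H3K27ac and Suz12 lists share only a number in the labels (2 pairs each, correlations of deviations 0.336 and 0.059). The block was also run for the Suz12 count, the limma calls within 5 kb and the missing H3K27ac regions, where it changed no call. Same-numbered pairs were both higher, with overlapping groups, for *Ezh1* in the gene body and within 60 kb and for *Phf1* in the gene body.

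For H3K27me3 the count of 0 became 1 within 60 kb (*Ezh2*), and 1 (*Phf19*) with regions joined, with the replicate block and without the replicate 1 lists of both conditions, a setting chosen after seeing the data. Leaving out 1 list gave 0 to 1, with 1 without THF replicate 1. The count of 4 members lower in every pair within 60 kb was 1 with no replicate block. For Suz12 the count of 0 became 1 within 60 kb (*Rbbp4*) and 0 to 1 with 1 list left out, with *Phf19* separating without THF replicate 1 or 4-OHT replicate 1. For H3K27me3 and Suz12 too, the share over all genes was not counted with 1 list left out. With lists scaled by their totals, a setting added after seeing the data, the counts of 2 members lower in H3K27ac in the gene body and within 60 kb each became 1. Limma called 0 members for every mark and setting run, although over all genes H3K27ac gave 690 lower and 1479 higher with no filter and 36 and 6 with lists scaled. Fits that left out a list of a pair assume that the lone list varies like the other group. No filter on covered lists could not be fitted for H3K27me3 and Suz12.

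With any FLAG list counted, members with a FLAG region were 3 at the TSS, 3 in the gene body and 7 within 60 kb. With all 3 lists required the last was 0, and it was 0 without FLAG replicate 1 or 2 and 1 without replicate 3. The 2 H3K27ac regions of both THF lists missing from 4-OHT became 12 of 85 (14.1%, against 31.8% of all regions) for either THF list, 8 (16% against 23.8%) where 4-OHT had to cover at least 50% of the region and 4 of 28 (14.3% against 11.8%) with a width minimum. With 1 list left out they became 4 to 11: 11 without THF replicate 1, 7 without THF replicate 2, 5 without 4-OHT replicate 1 and 4 without 4-OHT replicate 2, each a smaller share than over all regions.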
